A study of Mus musculus with 4 samples.

Results

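The genes described here code for the aminoacyl-tRNA synthetases, the enzymes that join each amino acid to its tRNA. They were chosen by gene name among the protein-coding rows of the table, which gave 38 of 55573 genes. Of these, 19 code for a cytosolic enzyme, Tarsl2 included, 17 for a mitochondrial enzyme, with a name that ends in 2, and 2 (Gars and Kars) for both forms. All 38 had reads in every library.

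A synthetase reads its tRNA and its amino acid and ties them together with energy from ATP, so that the ribosome receives the amino acid that the codon calls for. Cytosolic and mitochondrial protein synthesis use separate enzymes in most cases, all coded in the nucleus. The enzymes fall into a class I and a class II by the fold of the catalytic core, and several cytosolic ones are held with 3 scaffold proteins in a multisynthetase complex. In mammalian cells the transcription factor Atf4, made when amino acids run short, raises many cytosolic synthetase genes together with genes of amino acid synthesis and import.

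Ribosome-protected RNA fragments came from primary myoblasts of the mouse, muscle precursors obtained from digested hind-limb muscle of 3-week-old mice, grown in DMEM with 10% fetal bovine serum and FGF and labelled as proliferating on day 2. WT cells gave 2 libraries, and 2 came from cells of littermates labelled eIF5A-KO. In those mice tamoxifen was used to induce deletion of Eif5a through a Cre driven by the satellite cell gene Pax7. Every library was made after cycloheximide, which stalls elongating ribosomes. eIF5A is a translation factor activated by hypusine, a residue derived from spermidine, and it helps the ribosome past stretches such as consecutive prolines.

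The titles name the assay Polysome-Seq, but by the extraction protocol lysates were cut with RNase I and the protected fragments purified, and the values are read here as ribosome footprints on that ground. The level used is RPKM, the reads of a gene scaled by its length and by the library size that the authors set. Recovered reads came to between 642429 and 704006 per library, and protein-coding genes took 33.9% and 41.5% of them in WT against 59.2% and 65.4% in the libraries labelled eIF5A-KO. Eif5a itself was at 34.9 and 65.2 RPKM in WT and at 60.3 and 59.4 RPKM in the libraries labelled eIF5A-KO (log2 fold change 0.32 ± 0.48 SE, adjusted p = 0.839 by limma), so the targeted gene was not lower, and reads over a deleted exon cannot be separated in a table of whole genes. For this reason the second group is called the libraries labelled eIF5A-KO. The myoblast markers were present and mostly lower in that group: together they reached 259 and 210 RPKM in WT and only 120 and 135 RPKM in the other group, 6 of 9 lay below both WT libraries and 1 (Vcam1) above, and Myf5, Pax7, Des and Chrna1 had an unadjusted p under 0.05. Fibroblast markers summed to 477 and 285 RPKM in WT against 838 and 369 RPKM, with 4 of 9 above both WT libraries, 1 (Thy1) below, and Postn higher at that threshold. Endothelial markers summed to 111 and 105 RPKM against 148 and 117 RPKM, with 4 of 6 above both WT libraries and Kdr higher at that threshold. Immune markers summed to 30.9 and 54.4 RPKM against 35.0 and 27.8 RPKM, with 2 of 6 above and 2 below both WT libraries, Adgre1 higher and Lyz2 lower at that threshold. Over all tested protein-coding genes, 22.4% lay above and 19.3% below both WT libraries. None of the marker genes was at 0 in all 4 libraries. The part that cell composition plays in the values below was not tested. Fewer cells of a type, less RNA per cell and less translation of that RNA cannot be told apart in such bulk samples.

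The sequences shown first are those of a shared promoter element, the C/EBP-ATF element to which Atf4 binds with its partners. It was searched as TGATGNAA on both strands, which is TTNCATCA in the reverse sense, in the 300 bases around each annotated start (250 before and 50 after it, RefSeq, GRCm38.p6). A promoter was listed for 28 of the 38 genes. The element was found in 4 of 12 cytosolic genes (Aars, Iars, Tars and Yars), in Gars of the 2 genes that code for both forms and in 0 of 14 mitochondrial genes, against 4.51% of all 27025 genes with a promoter listed. Each line gives, for the match nearest the start, 30 bases on the strand of the gene with the match in capitals, so that the neighbouring bases of the genes can be compared. Genes with no promoter listed include Nars, Rars, Lars, Wars, Vars, Hars, Cars, Hars2 and Pars2.
Gars, chr6:55037960-55037989, plus strand: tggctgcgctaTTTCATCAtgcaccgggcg
Aars, chr8:111033840-111033869, plus strand: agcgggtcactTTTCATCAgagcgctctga
Iars, chr13:49682126-49682155, plus strand: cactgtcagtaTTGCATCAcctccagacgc
Tars, chr15:11399655-11399684, minus strand: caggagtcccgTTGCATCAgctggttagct
Yars, chr4:129189895-129189924, plus strand: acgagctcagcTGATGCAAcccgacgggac

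This match began 30 bases before the annotated start in Gars and 15 before it in Tars, and at bases 10, 8 and 4 of the transcript in Aars, Iars and Yars. In Tars, the threonine enzyme and a gene that comes back below for its fold change, the match ends at the last base before the gene as GENCODE M21 annotates it. The 243 bases that lead up to it are given as context, again with the match in capitals.
Tars, chr15:11399666-11399908, minus strand: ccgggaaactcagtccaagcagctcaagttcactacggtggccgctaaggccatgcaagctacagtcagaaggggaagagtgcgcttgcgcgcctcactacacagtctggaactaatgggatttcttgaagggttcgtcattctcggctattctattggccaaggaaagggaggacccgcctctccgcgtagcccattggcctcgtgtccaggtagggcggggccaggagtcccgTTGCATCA
These matches describe the letters only. Of the genes that hold the element, Tars and Yars had an unadjusted p under 0.05 by limma in the comparison below. Aars, Iars and Gars did not, at log2 fold changes of 0.48, 0.66 and 0.43. Over tested protein-coding genes, 2.94% were higher at that threshold. Farsb, also higher at it, held no such element in its listed promoter, and Lars and Hars had no promoter listed. A link of the element to the fold changes was not tested.

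In WT myoblasts the cytosolic enzymes stood well above the mitochondrial ones. The median WT level was 13.4 RPKM over the 19 cytosolic genes and 1.39 RPKM over the 17 mitochondrial genes. Of the mitochondrial genes, 15 lay below the lowest cytosolic gene other than Tarsl2, and the exceptions were Lars2 and Yars2. The highest level was that of Gars, the glycine enzyme, at 58.0 ± 21.9 RPKM in WT (SD, n = 2), followed by Nars for asparagine at 41.8 ± 18.7, Sars for serine at 32.5 ± 2.6 and Rars for arginine at 30.4 ± 14.7 RPKM. Gars lay above Sars and Rars without overlap, whereas the WT ranges of Gars and Nars overlapped, as did those of Nars, Sars and Rars. Within each WT library Gars lay above Nars and Nars above Rars, while the place of Sars changed between the libraries. With 2 libraries this order remains a description. Qars, for glutamine, was the lowest of the ordinary cytosolic enzymes at 5.96 ± 1.57 RPKM. Tarsl2, a second cytosolic threonine enzyme, lay far below it at 0.738 and 0.630 RPKM in WT and 0.654 and 0.367 RPKM in the libraries labelled eIF5A-KO.

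The order depends on the length that the reads are divided by. The table uses the full exonic length of a gene, and footprints, if the libraries hold them as that protocol says, come mainly from coding sequence. When the same reads were divided by the annotated coding length, Nars led in WT with 109 on the same scale, followed by Sars with 104, Gars with 82.7, Aars with 60.8 and Lars2 with 57.1. Eprs, the fused glutamate and proline enzyme whose exonic length is 18102 bases against 4536 coding bases, went from rank 18 to rank 8 of 38.

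**Figure D1:**
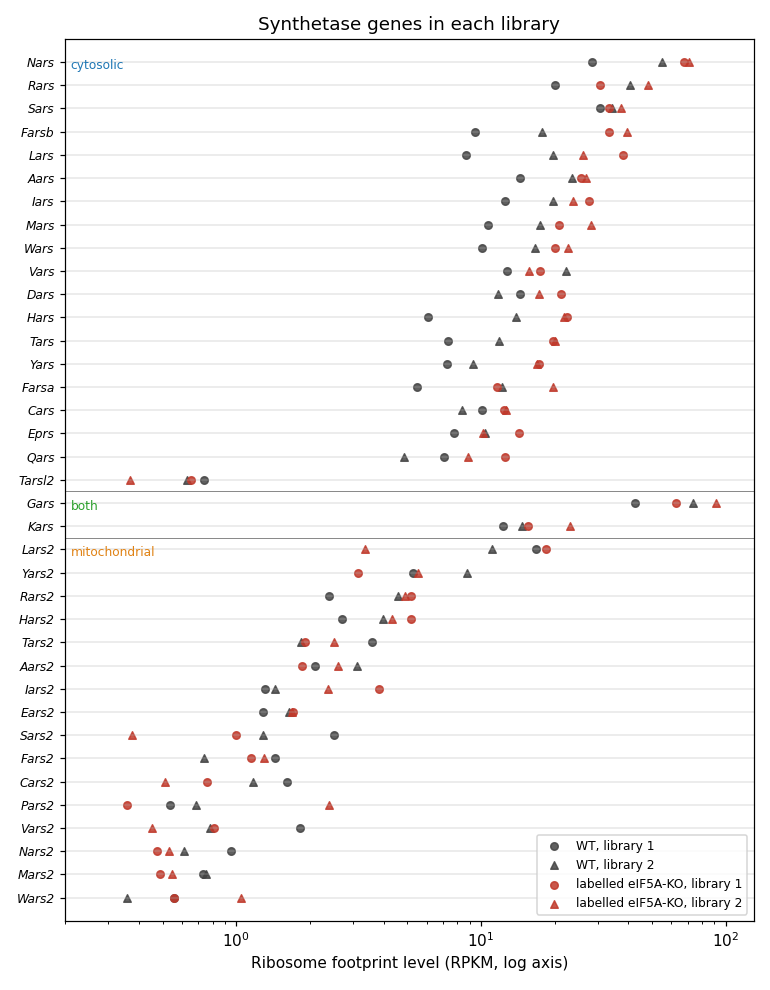
Level of 37 of the 38 synthetase genes in each library, in RPKM on a log axis, with genes in rows grouped as cytosolic, both and mitochondrial; grey symbols are WT, red symbols are the libraries labelled eIF5A-KO, and circles and triangles are libraries 1 and 2. For 13 of the 19 cytosolic genes both red symbols lie to the right of both grey ones, and WT library 1 is the lowest of the 4 in 15 of the 19.

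The comparison of the libraries labelled eIF5A-KO with WT asks which synthetase genes had more or fewer ribosome-protected reads, a level in which the amount of mRNA and its translation cannot be told apart. Most cytosolic synthetases had more ribosome-protected reads in the libraries labelled eIF5A-KO, and the mitochondrial ones had no common direction. Of the 19 cytosolic genes, 13 were higher in both of these libraries than in either WT library, 0 were lower in both and 6 overlapped. The corresponding shares over all tested protein-coding genes were 22.4% higher and 19.3% lower, and among the coding genes with at least 100 reads, where 18 of the 19 cytosolic genes belong, 30.3% were higher. Of the 17 mitochondrial genes, 4 were higher in both libraries, 4 were lower in both and 9 overlapped. By reads, all of the 17 but Lars2 belong with tested coding genes under 100 reads, of which 18.3% were higher and 21.3% lower. The median log2 fold change was 0.68 over the 19 cytosolic genes and -0.16 over the 17 mitochondrial genes. It was 0.05 over all tested protein-coding genes, 0.19 over those with at least 100 reads and -0.02 over those with under 100. With the read totals of the libraries set equal, the medians were 1.26 for the cytosolic and 0.28 for the mitochondrial genes, so the sign of the latter turned, while the median of all tested genes moved to 0.50.

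No single synthetase passed the test. A gene was tested where its mean was at least 1 RPKM, which 32 of the 38 did (18 cytosolic, 2 coding for both forms and 12 mitochondrial), and 0 of them had an adjusted p under 0.05 by limma on log2(RPKM + 1). Over all 11363 tested genes 12 did, or 0.106%. None of these was protein-coding: of the 9877 tested protein-coding genes 0 passed, with a lowest adjusted p of 0.113 by limma. At an unadjusted p under 0.05 the same test had 3 synthetases higher (Farsb, Yars and Tars) and 0 lower, and limma-voom on the recovered reads had 5 higher and 0 lower, with 0 at an adjusted p under 0.05, beside 4.17% of coding genes higher in that fit. In the limma fit on log2(RPKM + 1), among tested protein-coding genes 2.94% were higher and 3.04% lower at that threshold, and among those with at least 100 reads 2.59% were higher. The count of 3 varied with the libraries used: leaving out WT library 1 gave 1, leaving out WT library 2 gave 9, and leaving out either library labelled eIF5A-KO gave 0, beside 3.74%, 7.5%, 0.871% and 1.25% of tested protein-coding genes higher. Each such fit leaves a group with 1 library, which is assumed to vary like the other group. The log2 fold changes depended mainly on the WT library used. Without WT library 1 and without WT library 2 they were 0.99 and 1.83 for Farsb, 0.81 and 1.13 for Yars, and 0.70 and 1.33 for Tars. Without library 1 and without library 2 of those labelled eIF5A-KO they were 1.53 and 1.28, 0.96 and 0.99, and 1.03 and 1.00, in the same order. The median of the cytosolic genes stayed above 0 each time, from 0.36 when WT library 1 was left out to 0.97 when WT library 2 was.

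Farsb was the member with the largest fold change. It codes for the beta subunit of the cytosolic phenylalanine enzyme and lies at chr1:78417975-78488897 on the minus strand (GRCm38). Its level was 9.497 and 17.8 RPKM in WT and 33.2 and 39.7 RPKM in the libraries labelled eIF5A-KO, so the groups did not overlap. The log2 fold change was 1.41 ± 0.46 SE (unadjusted p = 0.0224, adjusted p = 0.66 by limma). Farsa, the alpha subunit that pairs with it in equal number, stood at 5.48 and 12.2 RPKM in WT and at 11.7 and 19.6 RPKM in the other group, where the lower value fell within the WT range (0.81 ± 0.51, adjusted p = 0.697 by limma). The ratio of Farsa to Farsb within a library, which does not depend on how libraries are scaled, was 0.577 and 0.682 in the WT libraries, compared with 0.351 and 0.495 in those labelled eIF5A-KO. Since Farsb was taken up for its fold change, these ratios are a description and no separate support.

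Yars and Tars were the other members at an unadjusted p under 0.05. Yars, the tyrosine enzyme (chr4:129189760-129219607, plus strand), was at 7.26 and 9.29 RPKM in WT and at 17.3 and 16.9 RPKM in the libraries labelled eIF5A-KO. These groups lay well apart, with a log2 fold change of 0.97 ± 0.38 (unadjusted p = 0.0423, adjusted p = 0.672 by limma). Tars, the threonine enzyme (chr15:11382301-11399665, minus strand), was at 7.31 and 11.9 RPKM in WT and at 19.6 and 20.1 RPKM in the other group, again without overlap. Its log2 fold change was 1.01 ± 0.41 (unadjusted p = 0.0496, adjusted p = 0.672 by limma).

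Lars and Hars, for leucine and histidine, had larger fold changes than Yars and Tars, next after Farsb, but larger standard errors. Lars was at 8.65 and 19.8 RPKM in WT and at 38.2 and 26.1 RPKM in the libraries labelled eIF5A-KO (1.20 ± 0.52, adjusted p = 0.675 by limma). Hars was at 6.10 and 13.9 RPKM in WT and at 22.5 and 21.8 RPKM in the other group (1.17 ± 0.48, adjusted p = 0.672 by limma). In both genes WT library 1 lay far below WT library 2, and without it the fold changes were 0.65 for Lars and 0.64 for Hars. Hars shares 195 exonic bases with the divergent gene Hars2, and since the strand setting of the counting is not given in the sources used here, reads in that stretch cannot be assigned with certainty.

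Farsb, described above, was among the 4 cytosolic enzymes with the highest mean over all 4 libraries, together with Nars, Rars and Sars, although by WT mean it ranked 11 of 38. Nars was at 28.6 and 55.1 RPKM in WT and at 67.8 and 70.8 RPKM in the libraries labelled eIF5A-KO, without overlap (0.79 ± 0.49, adjusted p = 0.697 by limma), and its fold change was 0.33 without WT library 1. Rars was at 20.04 and 40.8 RPKM in WT and at 30.7 and 47.9 RPKM in the other group, and the groups overlapped. Sars had the closest replicates of these, with 30.6 and 34.3 RPKM in WT and 33.4 and 37.3 RPKM in the other group (0.12 ± 0.40, adjusted p = 0.933 by limma).

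The remaining tested cytosolic genes ranged from Vars, for valine, at -0.03 ± 0.44 to Mars, for methionine, at 0.79 ± 0.44. Aars, Iars, Mars, Wars, Dars, Cars and Qars, which serve alanine, isoleucine, methionine, tryptophan, aspartate, cysteine and glutamine, each lay above both WT libraries in both libraries labelled eIF5A-KO. In Aars, Iars, Mars, Wars and Qars, as in Nars and Lars, the gap between the groups was narrower than the spread within WT. Eprs and Vars overlapped, and Tarsl2, with 11 reads in all, was not tested. The direction of Vars turned under some settings, among them scaling to equal read totals and removal of the GC trend, and that of Rars without WT library 1, whereas the other 16 tested cytosolic genes stayed above 0 under the 10 alternatives that can move a fold change.

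Fold changes were mostly positive both for the genes of the multisynthetase complex and for the enzymes outside it. The 8 synthetase genes of the complex (Eprs, Iars, Lars, Mars, Qars, Rars, Kars and Dars) gave a median fold change of 0.60 (log2), and 6 of the 8 lay above both WT libraries, while the 13 others, Gars included, gave 0.68, and 8 of the 13 lay above. Over coding genes with at least 100 reads that share was 30.3%. Class I enzymes had a median of 0.68 over 9 genes and class II enzymes 0.53 over 11. The differences between these groups were not tested, since the genes are not replicates of a condition.

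Gars and Kars each code for the cytosolic and the mitochondrial form. Gars, on chr6:55038007-55079500, was at 42.5 and 73.5 RPKM in WT and at 62.9 and 91.7 RPKM in the libraries labelled eIF5A-KO, so that library 1 of the second group fell inside the WT range (0.43 ± 0.50, adjusted p = 0.781 by limma). Without WT library 1 its fold change was 0.05. It made up between 10.9% and 15.2% of the summed synthetase level of a library. Kars, the lysine enzyme, was at 12.3 and 14.7 RPKM in WT and at 15.6 and 23.0 RPKM in the other group, just outside the WT range (0.47 ± 0.41, adjusted p = 0.73 by limma).

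**Figure D2:**
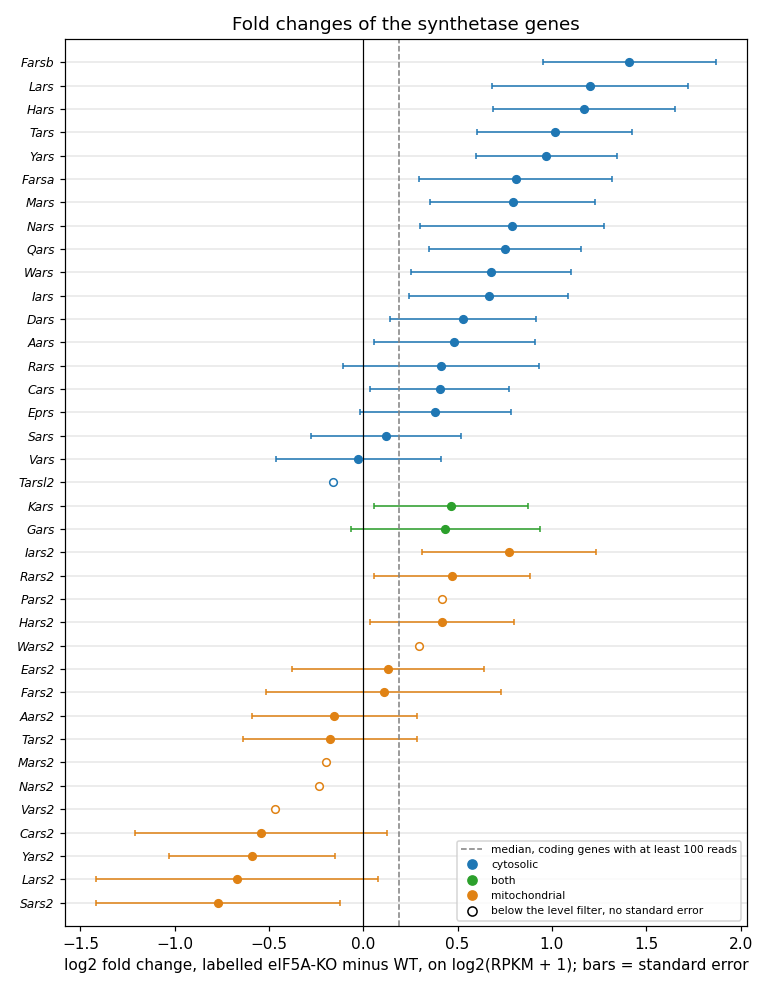
log2 fold change of 37 of the 38 synthetase genes, libraries labelled eIF5A-KO minus WT, on log2(RPKM + 1); bars are the standard error from limma over 2 against 2 libraries, open symbols are the 6 genes below the level filter, and the dashed line is the median of coding genes with at least 100 reads, 0.19. Cytosolic genes (blue) lie mostly to the right of that line, from -0.16 to 1.41, and mitochondrial genes (orange) spread on both sides of 0, from -0.77 to 0.77.

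Mitochondrial synthetases were measured with few reads. Their median was 19 reads over the 4 libraries together, against 226 for the cytosolic genes, and 9 of the 17 had fewer than 20. Lars2, the leucine enzyme, was the exception with 386 reads, and its level differed widely within the second group: 16.8 and 11.1 RPKM in WT and 18.5 and 3.35 RPKM in the libraries labelled eIF5A-KO. Its log2 fold change of -0.67 ± 0.75 (adjusted p = 0.775 by limma) comes from library 2 of the second group, since it became 0.41 without that library.

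Yars2, the tyrosine enzyme, was at 5.27 and 8.76 RPKM in WT and at 3.15 and 5.50 RPKM in the libraries labelled eIF5A-KO, with overlap (-0.59 ± 0.44, adjusted p = 0.711 by limma). Rars2, for arginine, was at 2.39 and 4.60 RPKM in WT and at 5.17 and 4.91 RPKM in the other group (0.47 ± 0.41, adjusted p = 0.73 by limma). Hars2, for histidine, was at 2.71 and 3.97 RPKM in WT and at 5.15 and 4.34 RPKM in the other group (0.42 ± 0.38, adjusted p = 0.732 by limma). For Rars2 and Hars2 the higher WT library was close to the lower library of the second group, so that the gap is narrower than the spread within WT.

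Tars2, for threonine, was at 3.59 and 1.84 RPKM in WT and at 1.91 and 2.50 RPKM in the other group, fully interleaved (-0.18 ± 0.46, adjusted p = 0.912 by limma). The extremes of the mitochondrial group were Sars2, for serine, at -0.77 on 11 reads, and Iars2, for isoleucine, at 0.77 on 61 reads. Iars2 shares 2034 exonic bases, 22.9% of its length, with Rab3gap2 on the other strand, which had 185 reads, so its value is uncertain. The genes above both WT libraries were Iars2, Rars2, Hars2 and Ears2, and those below both were Sars2, Cars2, Nars2 and Mars2. Pars2, Vars2, Nars2, Mars2 and Wars2 were under the level filter and Aars2 and Fars2 overlapped between the groups.

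Summed over each class, the cytosolic level was 224 and 350 RPKM in WT and 448 and 467 RPKM in the libraries labelled eIF5A-KO, a ratio of means of 1.59. The mitochondrial sum was 45.9 and 44.5 RPKM in WT and 48.8 and 35.4 RPKM in the other group, a ratio of 0.932. Cytosolic sums therefore did not overlap between the groups and mitochondrial sums did. However, the WT cytosolic sums lay further apart from each other than WT library 2 lay from the lower sum of the other group. Their mean was 287 ± 89.3 RPKM (SD, n = 2), against 457 ± 13.5 RPKM.

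The ratio of the cytosolic to the mitochondrial sum within a library is independent of the scaling between libraries. It was 4.89 and 7.88 for WT, compared with 9.17 and 13.2 for the libraries labelled eIF5A-KO. Without Lars2 it was 7.70 and 10.5 in WT and 14.8 and 14.6 in the other group. On both counts the groups did not overlap, and the library labels of 2 against 2 allow no two-sided exact permutation p below 0.333. As a share of reads on protein-coding genes, all synthetases together took 0.388% (95% Wilson interval 0.365 to 0.412) and 0.516% (0.486 to 0.546) in WT, and 0.582% (0.56 to 0.604) and 0.604% (0.58 to 0.629) in the libraries labelled eIF5A-KO. The intervals cover counting error only, and the WT libraries differed from each other by more than it.

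**Figure D3:**
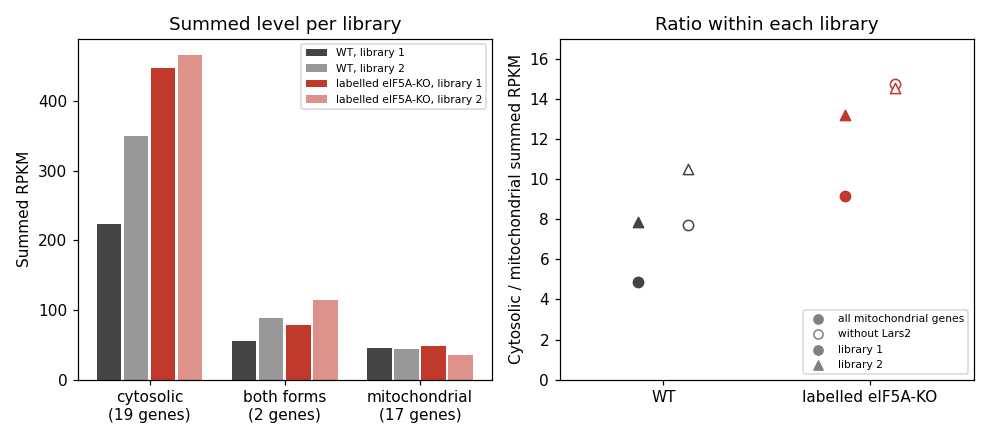
Left, summed RPKM of the cytosolic, both-form and mitochondrial genes in each library (grey WT, red libraries labelled eIF5A-KO, paler bars for library 2). Right, the ratio of the cytosolic to the mitochondrial sum within each library, filled with all mitochondrial genes and open without Lars2; the ratios run from 4.89 to 7.88 in WT and from 9.17 to 13.2 in the other group.

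Base composition moved with the comparison over the whole table. The median log2 fold change of tested protein-coding genes went from 0.37 in the tenth of genes with the lowest coding GC to -0.48 in the tenth with the highest. Cytosolic synthetases had a median coding GC of 52.1% and mitochondrial ones 55.4%. Against the median of the tenth with their own GC, 17 of the 19 cytosolic genes were higher, by a median of 0.53 on the log2 scale, and 8 of the 17 mitochondrial genes were higher, with a median difference of -0.04. With the GC trend removed in each library, the medians over the tested genes were 0.61 for 18 cytosolic and 0.10 for 12 mitochondrial genes.

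**Figure D4:**
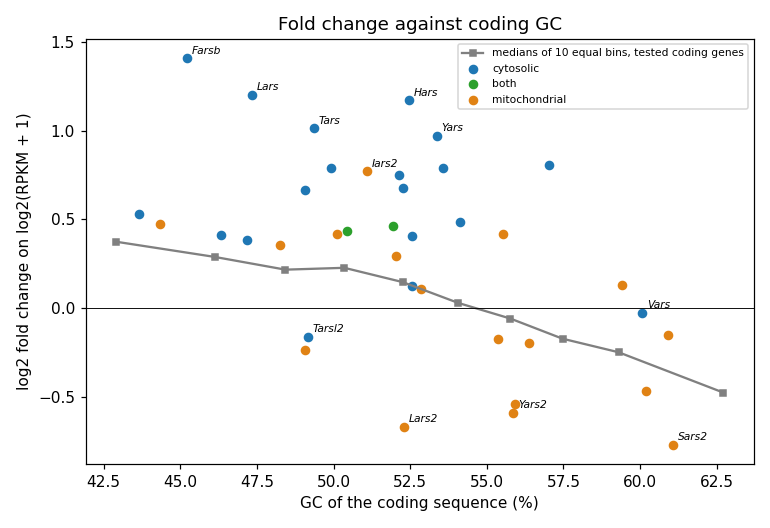
log2 fold change of each synthetase gene (libraries labelled eIF5A-KO minus WT, on log2(RPKM + 1)) against the GC content of its coding sequence in percent; the grey line joins the medians of 10 equal bins of tested protein-coding genes, which run from 0.37 down to -0.48. Cytosolic genes (blue) lie above the line in 17 of 19 cases and mitochondrial genes (orange) in 8 of 17.

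Because eIF5A acts at consecutive prolines, the coding sequences were searched for runs of at least 3. Such a run was found in 6 of the 38 synthetases, or 15.8%, against 25.7% of tested protein-coding genes. Vars holds 4 runs, and Mars, Kars, Iars2, Fars2 and Vars2 hold 1 each. Their log2 fold changes were -0.03, 0.79, 0.47, 0.77, 0.11 and -0.47, in that order, with no common direction.

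The proteins that work beside the synthetases were examined as lists, and none of their genes had an adjusted p under 0.05 by limma. The scaffold genes of the multisynthetase complex had positive values: Aimp1 0.78 ± 0.39, Aimp2 0.31 ± 0.57 and Eef1e1 0.80 ± 0.53. Aimp1 was at 3.85 and 5.69 RPKM in WT and at 7.68 and 9.96 RPKM in the libraries labelled eIF5A-KO, without overlap, whereas Aimp2 and Eef1e1 overlapped.

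The list of amino acid response genes holds Atf4 and its known targets. Of its 25 genes, 10 were above both WT libraries in both libraries labelled eIF5A-KO and 0 below, with a median log2 fold change of 0.24 over the 25. The share of 40% stands beside 22.4% of all tested protein-coding genes and 30.3% of those with at least 100 reads, whose median was 0.19. Shmt2, a mitochondrial enzyme of serine and folate metabolism, was at 9.60 and 11.6 RPKM in WT and at 36.9 and 21.1 RPKM in the other group (1.32 ± 0.44, unadjusted p = 0.025, adjusted p = 0.665 by limma). Psat1, of serine synthesis, was at 5.85 and 13.0 RPKM in WT and at 19.2 and 23.6 RPKM in the other group (1.19 ± 0.48, unadjusted p = 0.0498, adjusted p = 0.672 by limma). These were the only genes of the list at an unadjusted p under 0.05, and Atf4 itself had 0.27 ± 0.43 while Ddit3, Trib3 and Chac1 overlapped between the groups.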

How the data were processed

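The deposited table gives RPKM values that the authors computed per gene and library. Their methods name the removal of rRNA and tRNA reads, mapping with TopHat2 and counting with HTSeq, and the submitters' processing notes name mm10; strand use is not given in the sources used here. Multiplying by gene length and by a scale fitted in each library gave whole reads for 100% of values above 0 (tolerance 0.01 of a read). The library sizes behind the RPKM values ran from 471136 to 906990 and were not the read totals. No column of per-sample values was left unused.

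Groups and replicate numbers came from sample titles. Nothing used here states that the libraries of a group came from separate animals, so p-values measure the spread between these libraries. limma 3.58.1 (R 4.3.3, trend) was run on log2(RPKM + 1), after genes averaging under 1 RPKM had been removed, with Benjamini-Hochberg adjustment over all 11363 genes. Fold changes on this scale understate those of low genes. The script was tested on simulated data. Same-numbered libraries did not deviate together (r = 0.0575 over genes), so no block was used. Coding sequences came from GENCODE M21, which held all 38 genes.

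Of the members, 1 is counted but not reported by name here. Named genes were the other members, with values per library for members at an unadjusted p under 0.05, the 4 highest of each compartment, the 3 highest and 3 lowest fold changes with at least 20 reads, Gars, Kars and Tarsl2, and of other lists the scaffold genes and those at an unadjusted p under 0.05. Outside this rule, Farsa was added as the partner of Farsb, and further genes of the lists, among them Trnt1, Ssb, Qrsl1, Eef1d, Eef1g and Atf4, were named as description. Members, lists and tests were chosen with earlier results of these data known. Pseudocount, filters, scaling, GC, model, block and left-out libraries were varied.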

Additional observations from a re-analysis of the deposited data

How the results depend on the processing

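No synthetase had an adjusted p under 0.05 by limma under any of the 16 alternatives run, and the lowest adjusted p ranged from 0.24 to 0.944. The 3 synthetases higher at an unadjusted p under 0.05 became 5 with every gene above 0, protein-coding genes only, limma-voom or at least 20 reads (chosen after seeing the data), where 2.22% to 4.23% of tested protein-coding genes were higher. They became 1 with equal sums over protein-coding genes, trend=FALSE or the replicate block (2.07% to 2.8%), 17 with equal sums over all genes (16.4%), and 0 to 9 with a library left out (0.871% to 7.5%); 0 were lower throughout. Equal sums over all genes shifted the median of all tested genes to 0.50, and relative to that shift the cytosolic median of 1.26 stayed above it and the mitochondrial median of 0.28 below it. The mitochondrial median was -0.23 with equal sums over protein-coding genes, 0.10 with the GC trend removed (-0.02 before it over the same 12 genes) and -0.024 without Lars2, also chosen after seeing the data. With a library left out, the cytosolic median ran from 0.36 to 0.97, the mitochondrial median from -0.23 to 0.013 and the difference of mitochondrial minus cytosolic from -1.11 to -0.46 (-0.83 with all 4). Of the 32 tested genes 25 kept their sign under the alternatives that can move a fold change (10 of 16, since filters, trend and the balanced block leave it as it was): 16 of 18 cytosolic, both genes with 2 forms and 7 of 12 mitochondrial. The cause of these shifts was not tested. Depth limits the mitochondrial genes most: all but Lars2 had 9 to 61 reads over the 4 libraries.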

Other observations

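The other genes that handle tRNA had the following values, which belong to no comparison above. Among genes for tRNA processing and end addition, 4 of 5 lay above both WT libraries in both libraries labelled eIF5A-KO and 0 below, with a median log2 fold change of 0.57, beside shares of 22.4% higher among all tested protein-coding genes and 30.3% among those with at least 100 reads. Trnt1, which adds the CCA end to every tRNA, was at 1.504 and 7.21 RPKM in WT and at 7.995 and 7.29 RPKM in the other group (0.93 ± 0.61, adjusted p = 0.697 by limma), and its WT libraries differed from each other more than the second lay from the other group. Ssb, which binds the ends of new tRNA transcripts, was at 28.4 and 46.2 RPKM in WT and at 58.2 and 50.4 RPKM in the other group (0.57 ± 0.45, adjusted p = 0.72 by limma).

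Dtd2, which clears wrongly charged tRNA, was at 0.534 and 0.683 RPKM in WT and at 3.19 and 3.19 RPKM in the libraries labelled eIF5A-KO (1.38 ± 0.50, unadjusted p = 0.0341, adjusted p = 0.672 by limma) on 19 reads in all. It was the only gene of the editing list at an unadjusted p under 0.05, and Ybak of that list was not analysed here. Of the elongation factor genes that serve the delivery of charged tRNA, 2 of 4 lay above both WT libraries (30.3% of coding genes with at least 100 reads did). They were Eef1d and Eef1g (0.74 ± 0.38 and 0.71 ± 0.51). Eef1b2 and Eef1a1, which codes for the carrier itself, overlapped between the groups at 0.18 ± 0.49 and -0.18 ± 0.50. Of the 6 genes that serve tRNA charging in mitochondria, 1 lay above both WT libraries, a share of 16.7% beside the 22.4% of tested protein-coding genes. It was Qrsl1, a subunit of the amidotransferase that makes glutaminyl-tRNA, and 0 lay below. Its WT library 2 was listed at 0 and library 1 at 0.856 RPKM, against 2.28 and 3.83 RPKM.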
